A study of Mus musculus with 4 samples.

Results

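The immediate early genes described here are 10 mouse genes chosen by name: *Fos*, *Fosb*, *Jun*, *Junb*, *Jund*, *Egr1*, *Atf3*, *Ier2*, *Ier3* and *Klf6*. All 10 were found among the 35739 genes of the abundance table. The rule uses their names and no measured value, but the genes were chosen with earlier results of these data known. They were measured by RNA-seq in whole liver of mice 10 to 11 weeks old on a normal diet, with 2 WT libraries (replicates 2 and 3) and 2 *Usp21* KO libraries (replicates 1 and 3), each labelled as a separate mouse. *Usp21* encodes a deubiquitinase, and in the KO animals exons 3 and 4 had been excised with Cre in all tissues after the neomycin cassette was removed with Flp. The WT animals were littermates that carried neither the deletion nor a treatment, and the KO alleles came from a mixed-strain background, so alleles linked to *Usp21* can also differ between the genotypes. Sex and hour of collection were not given in the sources used here.

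Immediate early genes are transcribed within minutes of a stimulus from factors already present in the cell, so they need no new protein to be switched on. Growth factors, cytokines and stress reach them through MAP kinases, which act on serum response factor, its ternary complex partners and CREB at their promoters. Many encode transcription factors, and the Fos and Jun families pair through leucine zippers to form AP-1, while the RNAs themselves are short-lived. In liver they are known for their rapid rise after partial hepatectomy, during the acute phase response and on handling or dissociation of the tissue.

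The bases before the RefSeq start site of *Fos*, *Junb*, *Jun* and *Ier3* are shown because *Fos* and *Junb* had wide ranges over the 4 libraries, *Jun* was the Jun-family gene with its highest value in a KO library, and *Ier3* differed little between the WT libraries. Each is 250 bases long, from RefSeq (GRCm38.p6), written 5′ to 3′ on the gene's own strand, and capitals mark matches, on either strand, to the TATA box letters TATAAA, to the core of the CREB site TGACG or to the CCAAT box. The positions are chr12:85473640-85473889 on the forward strand for *Fos*, chr8:84978749-84978998 on the reverse strand for *Junb*, chr4:95052223-95052472 on the reverse strand for *Jun* and chr17:35821463-35821712 on the forward strand for *Ier3*.
Fos: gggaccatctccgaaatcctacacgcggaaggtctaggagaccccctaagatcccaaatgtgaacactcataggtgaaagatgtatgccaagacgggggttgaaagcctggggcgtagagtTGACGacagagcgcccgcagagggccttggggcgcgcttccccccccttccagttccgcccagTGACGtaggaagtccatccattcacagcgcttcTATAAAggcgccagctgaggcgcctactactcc
Junb: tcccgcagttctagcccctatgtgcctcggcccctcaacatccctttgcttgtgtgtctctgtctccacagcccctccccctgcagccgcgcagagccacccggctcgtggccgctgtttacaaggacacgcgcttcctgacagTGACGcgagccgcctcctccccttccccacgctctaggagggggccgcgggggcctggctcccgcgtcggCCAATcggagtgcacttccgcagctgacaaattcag
Jun: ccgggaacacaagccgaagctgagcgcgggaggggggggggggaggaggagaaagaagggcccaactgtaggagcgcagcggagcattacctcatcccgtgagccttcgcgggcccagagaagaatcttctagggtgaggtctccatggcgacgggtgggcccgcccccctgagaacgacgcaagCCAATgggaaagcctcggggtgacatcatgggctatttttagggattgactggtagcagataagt
Ier3: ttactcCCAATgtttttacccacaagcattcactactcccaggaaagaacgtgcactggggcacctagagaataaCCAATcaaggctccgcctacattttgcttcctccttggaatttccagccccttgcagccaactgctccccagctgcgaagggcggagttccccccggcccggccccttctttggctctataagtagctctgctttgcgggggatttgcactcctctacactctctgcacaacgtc

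Promoters of 8 of the 10 genes were read from RefSeq (250 bases before to 50 after the start site). The core TGACG was in 4 of the 8 (*Fos*, *Fosb*, *Junb* and *Atf3*), compared with 20.8% of all 32851 promoters of that length. The *Fos* promoter held it at -129 and at -66 from the start site, and TATAAA at -33, and the *Junb* promoter held it at -106, with CCAAT at -36 and TATAAA at position 1 of the RefSeq start, which lies 30 bases upstream of the GENCODE start. TATAAA was in 2 of the 8 and in 13.6% of all promoters, CCAAT was in 5 of the 8 and in 37.4%, and GGGCGG was in 6 of the 8 and in 35.7%. The full CREB site TGACGTCA (found in 1.79% of all promoters), the AP-1 site TGANTCA (found in 7.81%) and the CArG box bound by serum response factor (1.63%) had a match in 0 of the 8 windows. TGACG is contained in TGACGTCA, the motifs were searched on both strands, and a match is a description of letters and not a site. A motif without a match here can lie outside the windows, and the promoters of *Egr1* and *Ier2* were not read. For *Jund* the RefSeq start lies 1210 bases upstream of the GENCODE start and for *Atf3* 34706 bases downstream of it, and in the other 6 windows TGACG was in 3, TATAAA in 2, CCAAT in 4 and GGGCGG in 5.

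Levels are given as TPM, an abundance per transcript length, so they can be compared between genes. Where 4 values stand together, they are in the order WT 2, WT 3, KO 1 and KO 3. *Usp21* itself was 4.07, 6.29, 1.64 and 2.93 TPM, lower in both KO libraries than in both WT libraries. The same held for 10.9% of the 9581 genes that averaged 1 TPM or more. Its log2 fold change (KO minus WT) was -0.92 with a standard error of 0.33, and *Usp21* did not pass the test (limma adjusted p = 0.464). Between 12876 and 13620 genes were above 0 TPM per library. Mitochondrially encoded genes took 16.3%, 11.6%, 16.5% and 15.5% of the TPM, the lowest share being that of WT 3. WT 3 stood apart from the other libraries in acute phase genes and in the neutrophil genes *S100a8* and *S100a9*: *Saa1*, the major acute phase serum amyloid, was 47.8, 1089, 162 and 135 TPM. The hepatocyte marker *Alb* was between 27475 and 43181 TPM in all 4 libraries. TPM records no read depth, and a second table of scaled read counts held only 102898 to 148164 reads per library, in which 9 of the 10 immediate early genes had 0 reads in every library and *Ier3* had 1 read in WT 2 and 1 in KO 3. That table does not follow the TPM: of the 2212 genes in both tables with at least 20 TPM in every library, 1563 (70.7%) had 0 reads in all 4, *Jund* among them, so a 0 there says nothing of the level of these genes.

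By mean TPM the levels fell into 3 steps, of which the lower 2 overlapped in range. *Jund*, *Junb* and *Ier2* were the most abundant, and their ranges over the 4 libraries overlapped each other. *Jun* and *Klf6* followed, with ranges that overlapped each other, and the highest *Jun* value (5.98 TPM) lay below the lowest *Junb* (6.76 TPM) and *Ier2* (11.3 TPM) values. *Fos*, *Egr1*, *Ier3*, *Atf3* and *Fosb* had means under 1 TPM. In WT 3, however, *Fos* (2.95 TPM) and *Egr1* (2.49 TPM) lay within the ranges of *Jun* and *Klf6*. The summed TPM of the 10 genes was 52.5 in WT 2, 162 in WT 3, 102 in KO 1 and 66.4 in KO 3, so both extremes were WT libraries. In bulk liver, fewer cells that express a gene and less RNA per cell cannot be told apart.

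**Figure D1:**
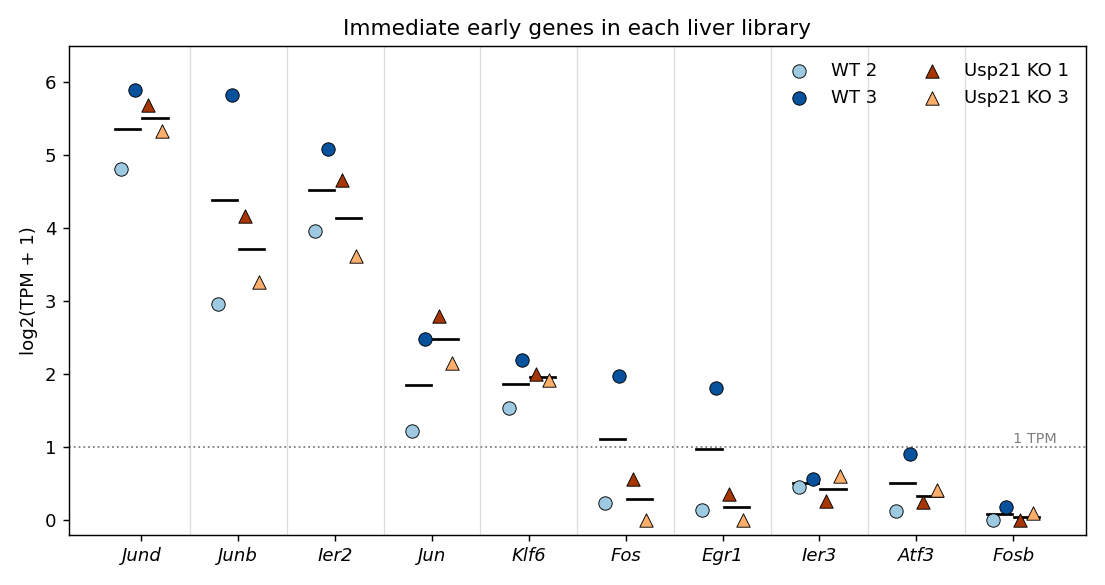
Level of each immediate early gene in each liver library, as log2(TPM + 1) on the vertical axis, with genes ordered by mean TPM. Circles are the 2 WT libraries, triangles the 2 *Usp21* KO libraries, short bars the genotype means and the dotted line 1 TPM. The dark circle (WT 3) is the highest point for 8 of the 10 genes and lies above the light circle (WT 2) for all 10.

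Among the Jun proteins, the AP-1 subunits that can pair with each other as well as with Fos, *Junb* varied most. *Junb* was 6.76 TPM in WT 2, 55.6 in WT 3, 17.0 in KO 1 and 8.57 in KO 3. The WT libraries thus bracketed both KO libraries, and WT 3 was 8.23 times WT 2 while KO 1 was 1.98 times KO 3. *Junb*, which often opposes Jun in growth control, averaged 31.2 ± 34.6 TPM in WT and 12.8 ± 5.94 TPM in KO (SD, n = 2 each), and its log2 fold change (KO minus WT, on log2(TPM + 1)) was -0.68 with a standard error of 0.92 (limma adjusted p = 0.792, 95% interval -2.95 to 1.60).

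*Jun*, the c-Jun subunit activated by JNK, was 1.33 TPM in WT 2, 4.61 in WT 3, 5.98 in KO 1 and 3.46 in KO 3. Its highest value was in KO 1, as for 45.9% of the genes that averaged 1 TPM or more, and its lowest in WT 2. The genotypes overlapped because WT 3 lay between both KO libraries. The WT mean was 2.97 ± 2.31 TPM and the KO mean 4.72 ± 1.78 TPM (SD, n = 2 each), with a log2 fold change of 0.63 and a standard error of 0.48 (limma adjusted p = 0.639, 95% interval -0.57 to 1.83). *Jund*, the Jun-family gene usually present in resting cells, was 27.2, 58.5, 50.6 and 39.4 TPM. Both KO libraries again lay inside the WT range. Its WT mean was 42.8 ± 22.2 TPM and its KO mean 45.0 ± 7.91 TPM (SD, n = 2 each), a log2 fold change of 0.16 with a standard error of 0.37 (limma adjusted p = 0.886).

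The Fos proteins cannot pair with themselves and need a Jun partner. *Fos* was 0.173 TPM in WT 2, 2.95 in WT 3, 0.481 in KO 1 and was listed at 0 in KO 3. WT 3 was thus the only library of the 4 above 1 TPM, and *Fos* was 1.75 higher in WT 3 than in WT 2 on the log2(TPM + 1) scale, next to 2.87 for *Junb* and 1.27 for *Jun*. Its fitted log2 fold change between genotypes was -0.82 with a standard error of 0.61 (limma without the filter, adjusted p = 0.695, 95% interval -2.37 to 0.73). *Fosb*, a Fos paralog linked to lasting stimulation, was listed at 0 in WT 2 and KO 1 and was 0.131 TPM in WT 3 and 0.0659 TPM in KO 3, too low to compare.

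*Egr1*, a zinc finger factor induced through serum response factor, followed *Fos* library by library: 0.104 TPM in WT 2, 2.49 in WT 3 and 0.281 in KO 1, and listed at 0 in KO 3. Its log2 fold change was -0.79 with a standard error of 0.56 (limma without the filter, adjusted p = 0.695). *Atf3*, a stress-induced bZIP factor that represses many of its targets, was 0.0869, 0.870, 0.186 and 0.334 TPM. Its highest value was again in WT 3 and its lowest in WT 2, with a log2 fold change of -0.18 and a standard error of 0.29 (limma without the filter, adjusted p = 0.845).

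*Klf6*, a Krüppel-like zinc finger factor, was 1.90 TPM in WT 2, 3.59 in WT 3, 2.99 in KO 1 and 2.79 in KO 3. The KO libraries were close to each other and lay between the WT libraries (a mean of 2.89 ± 0.146 TPM against 2.74 ± 1.19 TPM, SD, n = 2 each). Its log2 fold change was 0.09 with a standard error of 0.31 (limma adjusted p = 0.922), and -0.0059 with upper quartile scaling. *Ier2*, a small nuclear protein of the immediate early response, was 14.6, 32.9, 24.4 and 11.3 TPM. WT 3 was 2.26 times WT 2 and KO 1 was 2.16 times KO 3, so the ratio was of similar size within each genotype, and the log2 fold change was -0.38 with a standard error of 0.49 (limma adjusted p = 0.781). *Ier3*, a stress-inducible regulator of cell survival, was 0.374, 0.480, 0.198 and 0.513 TPM. It was the gene of the 10 with the smallest difference between WT 3 and WT 2 (0.11 on the log2(TPM + 1) scale), and KO 3 was its highest library. Its log2 fold change was -0.08 with a standard error of 0.18 (limma without the filter, adjusted p = 0.883).

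In the GENCODE M21 annotation (GRCm38), *Junb* lies on chromosome 8 from 84974484 to 84978718 on the reverse strand and is annotated with 1 coding exon, as are *Jun*, *Jund* and *Ier2*. The *Junb* locus overlaps *Prdx2* on the other strand, and *Prdx2* was 78.7, 76.4, 101 and 66.0 TPM. Whether reads of *Prdx2* were assigned to *Junb* was not tested. *Jun* (chromosome 4 from 95049034 to 95052222, reverse strand) and *Jund* (chromosome 8 from 70698949 to 70700616, forward strand) overlap the antisense genes *Junos* and *Gm11175*, and reads of such pairs cannot be told apart without strand, which was not given in the sources used here. *Fos* (chromosome 12 from 85473890 to 85477273, forward strand) has 4 exons. Of the 31-base stretches in the transcripts of the 10 genes, 0 were shared with another gene, except 2 of 6351 in *Fosb*.

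Read by library rather than by genotype, the members moved largely together. WT 3 was above WT 2 for 10 of the 10 genes, it was the highest library for 8 of 10 (all except *Jun* and *Ier3*), and WT 2 was the lowest for 5 of 10. Of the 5 that averaged 1 TPM or more, WT 3 was the highest library for 4 and WT 2 the lowest for 4. Over all 9581 genes that averaged 1 TPM or more, WT 3 was the highest library for 15.2% and KO 1 for 45.9%. WT 2 was the lowest for 32.2%. Each of the 10 genes was above its own mean over the 4 libraries in WT 3 and below it in WT 2, while 5 were above it in KO 1 and 3 in KO 3.

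**Figure D2:**
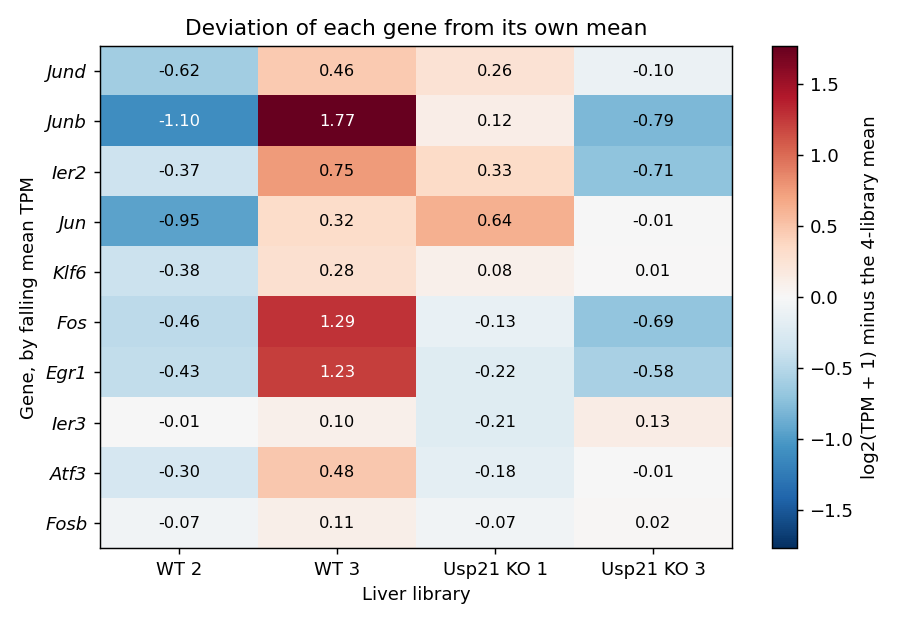
Deviation of each immediate early gene from its own mean over the 4 libraries, on the log2(TPM + 1) scale, with libraries in columns and genes in rows by falling mean TPM. Red is above and blue below the mean. The WT 3 column is above 0 and the WT 2 column below 0 in all 10 rows, with *Junb* at 1.77 and -1.10.

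Between the WT libraries, 4 of the 5 immediate early genes that averaged 1 TPM or more (*Jun*, *Junb*, *Jund* and *Ier2*) were at least 2-fold higher in WT 3 than in WT 2 (a difference of at least 1 on the log2(TPM + 1) scale), compared with 3.00% of the 9581 genes. The difference of *Junb* was matched or exceeded by 18 of those genes (0.188%), that of *Jun* by 148 (1.54%), that of *Ier2* by 213 (2.22%), that of *Jund* by 232 (2.42%) and that of *Klf6* by 706 (7.37%). The median of WT 3 minus WT 2 on the log2(TPM + 1) scale was 1.13 over these 5 immediate early genes, while the median over all 9581 genes was 0 and their median absolute difference 0.24. Between the KO libraries, KO 1 was above KO 3 for 7 of the 10, these 5 among them, compared with 64.6% of the 9581 genes. The median difference was 0.65 over the same 5 against 0.14. The cause of the difference between the WT libraries was not tested, since each of them is 1 mouse.

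The comparison of KO with WT livers asks whether the immediate early genes differ with *Usp21*. No immediate early gene passed the test: 0 of the 5 tested had an adjusted p under 0.05 (limma), compared with 0.0835% (8) of the 9581 genes. An unadjusted limma p under 0.05 was reached by 0 of the 10 (0 of the 5 tested), compared with 10.5% of the 9581 genes. None of the 5 changed by at least 2-fold (3.68% of all tested genes, with 2.59% higher and 1.10% lower in KO). The genotypes overlapped for all 10, the 5 tested among them, whereas 45.3% of all tested genes had groups that did not overlap (34.4% with KO above and 10.9% with KO below WT). Both KO libraries lay within the WT range for 5 of the 10 (*Junb*, *Jund*, *Atf3* and *Klf6*, and *Fosb* with a tie at 0). Of these, *Junb*, *Jund* and *Klf6* were among the 5 tested, and the share over all tested genes was 10.9%. The median log2 fold change of the 5 tested was 0.09, and that of all tested genes was 0.15. With 2 libraries per genotype the 95% intervals were wide: a 2-fold difference in either direction lay inside that of *Junb*, a 2-fold lower level in KO inside those of *Fos*, *Egr1* and *Ier2*, and a 2-fold higher level inside those of *Jun* and *Jund*.

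The direction of these differences changed with the WT library left out. Without WT 3, 9 of the 10 log2 fold changes were above 0 (all except *Ier3*) and the median of the 5 tested was 0.70, compared with 0.15 over all tested genes. Without WT 2, 10 of the 10 were below 0 and the median was -0.38. *Junb* went from -2.11 without WT 2 to 0.76 without WT 3, and the lowest limma adjusted p of the 10 genes was 0.672 and 0.728 in these fits. Leaving out KO 1 or KO 3 gave medians of -0.02 and 0.14, with 4 of the 10 above 0 in each case.

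**Figure D3:**
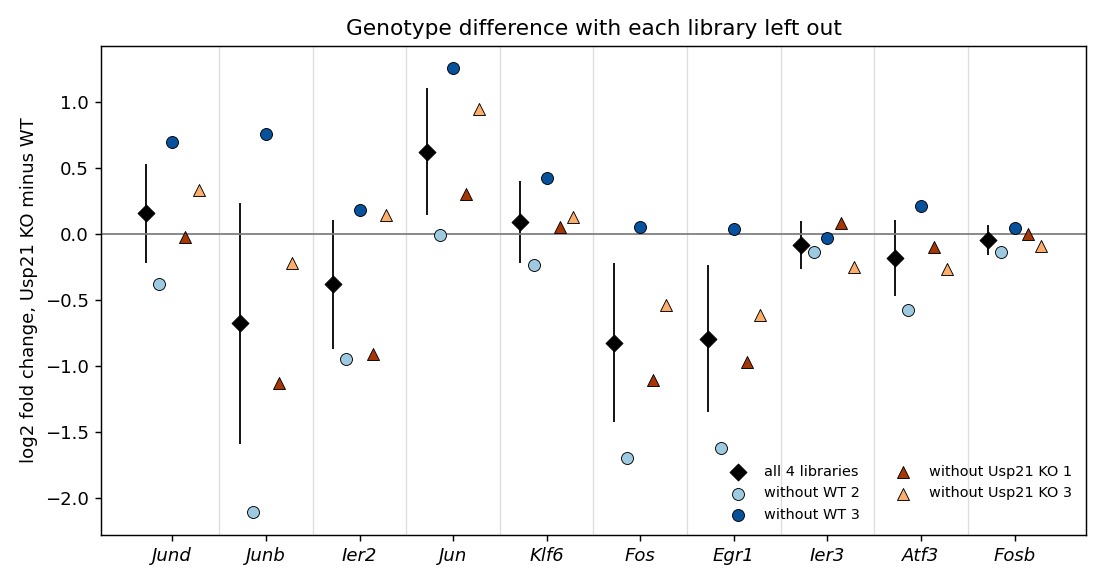
Log2 fold change (KO minus WT, on log2(TPM + 1)) of each immediate early gene with all 4 libraries (diamonds, bars are standard errors) and with each library left out. Without WT 3 the values lie above 0 for 9 of the 10 genes and without WT 2 below 0 for all 10, from -2.11 to 0.76 for *Junb*.

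The other genes of the pathway were taken from 6 lists of AP-1 relatives, other immediate early genes, feedback genes and upstream factors, which held 132 genes in the table, of which 99 were tested. None had an adjusted p under 0.05 in the comparison of genotypes (limma), 13 of the 99 (13.1%) had an unadjusted p under 0.05 (9 higher and 4 lower in KO), against 10.5% of all tested genes, and the median log2 fold change of the 99 was 0.24, against 0.15. The groups did not overlap for 39 (39.4%, against 45.3% of all tested genes). WT 3 was the highest library for 19 of them (19.2%, against 15.2% of all tested genes).

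Of the 10 other AP-1 and ATF family members tested, 6 had a log2 fold change above 0 and 4 below, with a median of 0.13. *Maff*, a small Maf factor without a transactivation domain, was 4.22, 4.72, 1.64 and 1.95 TPM (log2 fold change -0.97, limma adjusted p = 0.464). *Atf2*, a CRE-binding partner of Jun, was 4.85, 6.92, 11.9 and 7.64 TPM (0.63, limma adjusted p = 0.496). *Maff* was similar in both WT libraries and *Atf2* was highest in KO 1, and *Fosl1*, another Fos-family gene, was listed at 0 in all 4 libraries.

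Among the 17 other immediate early transcription factors tested, 12 had a log2 fold change above 0 and 5 below, with a median of 0.34. *Crem*, whose products answer cyclic AMP, was 11.5, 14.5, 30.8 and 42.0 TPM (log2 fold change 1.41, limma adjusted p = 0.290). *Nfil3*, a bZIP repressor with a part in the circadian clock, was 3.86, 8.13, 17.0 and 24.5 TPM (1.69, limma adjusted p = 0.436). *Csrnp1*, an AXIN-induced nuclear factor, was 6.71, 5.33, 2.92 and 1.67 TPM (-1.11, limma adjusted p = 0.464). These genes were named because their genotypes did not overlap, so that trait is no result for them. Of the 17, 5 had KO above WT and 3 had KO below WT without overlap, against 45.3% of all tested genes in either direction. None of the 17 passed the test.

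Of the 25 other immediate early effectors tested, 14 had a log2 fold change above 0 and 11 below (median 0.12), and *Ptgs2*, the inducible prostaglandin synthase, was listed at 0 in every library. The 13 feedback phosphatases and mRNA decay factors tested had 8 above 0 and 5 below, with a median of 0.09 that became 0.38 without WT 3. *Dusp1*, the phosphatase that switches off p38 and JNK, was 4.16, 6.39, 12.0 and 9.50 TPM (log2 fold change 0.92, limma adjusted p = 0.464). *Zfp36l1*, which promotes decay of AU-rich mRNAs, was 22.0, 28.8, 57.2 and 32.4 TPM (0.75, limma adjusted p = 0.478).

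Upstream, 14 of the 15 tested factors of the serum response factor, ternary complex and CREB group had a log2 fold change above 0, with a median of 0.55 (0.59 without WT 3) against 0.15 over all tested genes, and 3 of the 15 had an unadjusted p under 0.05, against 10.5% of all tested genes. WT 3 was the highest library for 0 of these 15. *Mrtfb*, an actin-regulated coactivator of serum response factor, was 0.816, 0.931, 2.27 and 3.04 TPM, with a log2 fold change of 0.96. Of the 21 tested kinases of the ERK, JNK and p38 routes, 14 were above 0 and 7 below (median 0.23). *Map2k6*, a kinase of p38, was 3.43, 3.72, 1.83 and 1.40 TPM, and *Mapk8*, which encodes JNK1, was 2.93, 2.18, 3.82 and 4.53 TPM. *Mapk3*, which encodes ERK1, had a log2 fold change of -0.39, and none of these kinases passed the test.

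The difference between the WT libraries was shared by part of the pathway. Of the 99 tested pathway genes, 11 (11.1%) were at least 2-fold higher in WT 3 than in WT 2, compared with 3.00% of all tested genes, and for 6 of the 11 (*Socs3*, *Nfkbiz*, *Gadd45b*, *Cebpb*, *Zfp36* and *Ier5*) WT 3 was the highest library. These genes were chosen after their values were seen. *Cebpb*, a liver acute phase transcription factor, was 51.7, 156, 81.9 and 76.8 TPM. *Zfp36*, an mRNA decay factor that feeds back on inflammatory transcripts, was 13.2, 32.9, 24.6 and 17.0 TPM. Both followed the order WT 3, KO 1, KO 3, WT 2 that *Junb*, *Jund* and *Klf6* had.

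By closeness of profile, the root mean square difference of log2(TPM + 1) values centred on their mean over the 4 libraries, the genes nearest to *Junb* among 5819 genes that averaged 5 TPM or more were *Socs3* (0.21), *Icam1* (0.32), *Mup-ps17* (0.34), *Fasn* (0.35) and *Mt2* (0.37). *Socs3*, the feedback inhibitor of cytokine signalling through STAT3, was 1.80, 15.0, 4.72 and 1.33 TPM. *Icam1*, an adhesion molecule for leukocytes, was 2.30, 12.1, 3.85 and 2.05 TPM, and *Mt2*, a metal-binding stress protein, was 106, 599, 328 and 89.3 TPM. *Fasn*, the fatty acid synthase, was 35.2, 155, 47.8 and 23.4 TPM, and *Mup-ps17* was 3.18, 19.5, 8.19 and 5.77 TPM. In each of these 5 genes WT 3 was highest, KO 1 next, and WT 2 and KO 3 lower. Nearest to the median profile of the 5 tested immediate early genes were *Gm6158* (0.0085), *Gas6* (0.078), *Gpatch4* (0.080), *Ifi27l2b* (0.093) and *Tcim* (0.095). With 4 libraries a close profile is a description only.

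Other stress responses and cell types moved in part with the same library. Of the 15 acute phase genes, all of which were tested, WT 3 was above WT 2 for 14 and the highest library for 9. Their median deviation from the mean over the libraries was -0.40, 0.44, 0.13 and -0.09 in WT 2, WT 3, KO 1 and KO 3, the same order as the -0.62, 0.46, 0.26 and -0.10 of the 5 tested immediate early genes. *Lcn2*, an iron-sequestering acute phase protein that neutrophils also hold, was 4.59, 67.1, 4.12 and 2.67 TPM. *Apcs*, the serum amyloid P component, was 51.3, 80.3, 224 and 138 TPM, and *Fgg*, the fibrinogen gamma chain, was 1330, 1530, 2584 and 1723 TPM. Both were highest in KO 1 instead, as were 45.9% of all tested genes. The list's median log2 fold change was -0.09 with all libraries and 0.56 without WT 3, with 7 genes above 0 and 8 below.

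Heat shock genes had another order. Their median deviation was -0.72, -0.11, 0.20 and 0.82 in WT 2, WT 3, KO 1 and KO 3, so that KO 3, which was low for *Junb*, *Fos* and *Egr1*, was the highest. All 11 tested heat shock genes had a log2 fold change above 0 (median 1.02, and 1.07 without WT 3, against 0.15 over all tested genes with all libraries), 7 had an unadjusted p under 0.05, against 10.5% of all tested genes, and 0 passed the adjusted test (limma). *Hspa1b*, the inducible HSP70, was 0.656, 3.97, 9.11 and 13.5 TPM, and *Hsph1*, its nucleotide exchange partner, was 7.28, 13.9, 30.2 and 40.6 TPM. *Hspd1*, the mitochondrial chaperonin, moved little between libraries at 153, 157, 168 and 170 TPM. The 9 tested hypoxia response genes were split, 5 above 0 and 4 below, with a median of 0.04, and *Car9* was listed at 0. *Pdk1*, which restrains pyruvate dehydrogenase, was 14.1, 16.9, 8.65 and 10.7 TPM, and *Vegfa*, the angiogenic factor, was 8.14, 10.1, 24.5 and 10.3 TPM.

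**Figure D4:**
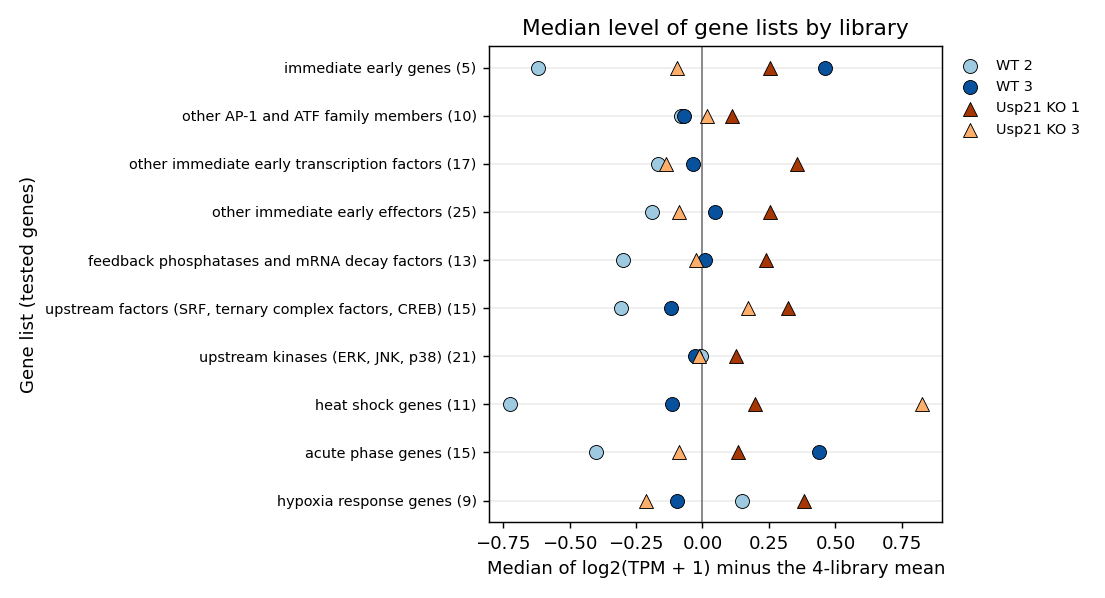
Median deviation of the tested genes of each list from their mean over the 4 libraries, on the log2(TPM + 1) scale, with 1 row per list and the number of tested genes in brackets. WT 3 (dark circle) lies at 0.46 for the immediate early genes and 0.44 for the acute phase genes, while for the heat shock genes KO 3 (light triangle) is highest at 0.82.

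Among cell markers, the summed TPM of 10 neutrophil genes was 5.99 in WT 2, 46.7 in WT 3, 4.97 in KO 1 and 2.72 in KO 3, with *S100a8* at 2.26, 29.1, 1.12 and 0.738 TPM and *S100a9* at 0.425, 12.7, 3.04 and 1.11 TPM. These 2 calcium-binding genes held 41.8 of the 46.7 TPM in WT 3, and the other 8 summed to 3.31, 4.93, 0.808 and 0.877 TPM, with WT 3 the highest for 5 of the 8. *Mmp9*, the gelatinase, went the other way at 1.56 TPM in WT 2 and 0.227 TPM in WT 3, *Retnlg* was 1.46 and 1.66 TPM in WT 2 and WT 3, *Ngp* was above 0 in WT 2 alone and *Camp* in KO 3 alone. Of these 10 genes 2 averaged 1 TPM or more, and *Ly6g*, which defines neutrophils in mouse, was 1.38 TPM in WT 3 and listed at 0 in the other libraries. The summed level of 12 Kupffer cell and macrophage markers was 257, 317, 146 and 366 TPM, an order that only *Ier3* of the 10 immediate early genes had. The sums over 12 hepatocyte markers (66869 to 92206 TPM), 12 sinusoidal endothelial markers (71.3 to 104 TPM), 12 stellate cell markers (96.5 to 189 TPM), 9 cholangiocyte markers (17.9 to 42.0 TPM), 12 lymphocyte markers (3.99 to 6.99 TPM) and 7 erythroid markers (719 to 911 TPM) were highest in a library other than WT 3. The part of the acute phase genes and of the neutrophil genes in the level of immediate early genes in WT 3 was not tested.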

How the data were processed

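Liver RNA-seq of 2 WT and 2 *Usp21* KO mice was used. The authors estimated abundance with Salmon and deposited it as TPM for 35739 genes, with a second deposited table of log2(TPM + 1) values that differed from the recomputed ones by at most 5.3e-09. The authors also deposited HTSeq counts on mm10 scaled with edgeR's TMM factors, a signal in CPM, for 55335 genes. Versions, strand setting and annotation release were not given in the sources used here. A total of 3 tables were read. CPM values were whole multiples of 1 read (6.68 to 9.22 CPM) for 100% of values within 0.02 reads, which recovered 102898 to 148164 reads per library. By counting error alone a count of 0 would allow 3 reads, or 20.0 to 27.7 CPM. Abundant genes also stood at 0 there, so this is no upper limit for the immediate early genes. On those reads 768 genes could be tested and edgeR's quasi-likelihood test called 1 (0.130%), with 0 immediate early genes among the 768.

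Genes that averaged 1 TPM or more (9581) were tested on log2(TPM + 1) with limma 3.58.1 (R 4.3.3; lmFit, eBayes with trend, prior degrees of freedom 3.62), two-sided, with Benjamini-Hochberg adjustment over all of them. The 5 immediate early genes under the filter were fitted among the 15061 genes above 0 TPM on average. Fold changes on this scale understate those of low genes. The p-values rest on the spread between the libraries of these mice only, with each variance drawn toward that of genes of similar level. With 1 library per mouse, preparation and counting error are part of that spread. An exact permutation test of 2 against 2 cannot go below p = 0.333 and was not used. The 10 genes, the gene lists and the tests were chosen with earlier results of these data known. Named with values were *Usp21*, the 10 genes, from each pathway and stress list the 2 tested genes with the highest and the 2 with the lowest log2 fold change where the groups did not overlap, the first and the undetected cell markers, and the 5 nearest profiles, and some genes under this rule are not reported here. *Saa1*, the neutrophil genes other than *S100a8*, *Prdx2* and the pathway genes that differed between the WT libraries were chosen after their values were seen. RefSeq promoters of 8 of the 10 genes were read from GRCm38.p6, and coordinates from GENCODE M21. Scripts were tested on simulated data. Alternatives tried were a pseudocount of 0.1 or 5, no filter on low values, a mean of at least 5 TPM, upper quartile scaling, variances without moderation, the CPM values, edgeR 4.0.16 and DESeq2 1.42.0 on recovered reads, and each library left out.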

Additional observations from a re-analysis of the deposited data

How the results depend on the processing

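No paired analysis was possible because the genotypes share only 1 replicate number. In the alternative runs on all 4 libraries, no tested immediate early gene passed an adjusted p of 0.05 or had an unadjusted p under 0.05. The 8 genes called over the whole table became 4 with no filter, 1 with the TMM-normalized CPM, 0 without moderation (806 with an unadjusted p under 0.05) and 0 to 0 with each library left out (542 to 1188 unadjusted). On the recovered reads, edgeR called 1 gene, 12 with no filter on low counts, and DESeq2 1. Upper quartile scaling took the median over all tested genes from 0.15 to 0.04 (log2), the 2-fold split from 248 higher and 105 lower to 173 and 137, and *Klf6* to -0.0059. Genes changed at least 2-fold numbered 353, against 820 and 115 with pseudocounts of 0.1 and 5, and 3134 of 5146 with the CPM. With the CPM only *Ier3* of the 10 could be fitted and turned to 0.12, from 1 read in each of 2 libraries. A mean of at least 5 TPM left 3 of them (*Ier2*, *Junb* and *Jund*).

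Over the fits that left out 1 library each, 0 to 1 of the 5 tested immediate early genes changed at least 2-fold. Their median log2 fold change was -0.38 to 0.70. Of the genes under the filter, *Fos* and *Egr1* also passed 2-fold without WT 2 (-1.70 and -1.63), and *Fos* without KO 1 (-1.11). The log2 fold changes ranged from -1.70 to 0.053 for *Fos*, -0.13 to 0.046 for *Fosb*, -0.0067 to 1.26 for *Jun*, -2.11 to 0.76 for *Junb*, -0.38 to 0.70 for *Jund*, -1.63 to 0.037 for *Egr1*, -0.57 to 0.21 for *Atf3*, -0.94 to 0.18 for *Ier2*, -0.25 to 0.086 for *Ier3* and -0.24 to 0.42 for *Klf6*. Where an arm was left with 1 library, it was assumed to vary like the other group. For single genes, 79 of the alternative values kept their direction and side of the threshold and 15 changed direction, and the cause was not tested. The reads behind the TPM are unknown, so the counting error of these values could not be given.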
